A study of Arabidopsis thaliana with 109 samples.

Results

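The transcription factor PIF7 was mapped on the Arabidopsis thaliana genome by chromatin immunoprecipitation and sequencing (ChIP-seq), and 523 of the 1408 binding events listed after 30 min in light with a low ratio of red to far-red (low R:FR) are described here. These 523 events had a caller's k-mer, the short sequence that the event caller assigns to a binding position, that held the G-box hexamer CACGTG, and each had an event within 100 bases in both of the other event lists of the series. The k-mer rule alone took 984 events of the 30 min list, so 461 G-box events were not shared by all lists and 424 events had no G-box k-mer. Transcript level did not enter the choice. No cut on event strength was made, but strength entered indirectly, since an event had to be called in every list.

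PIF7 belongs to the phytochrome-interacting factors, basic helix-loop-helix proteins that bind G-box and related E-box elements. In light rich in far-red, as under a leaf canopy, phytochrome B loses its active form, and PIF proteins that it held in check can act on their targets. PIF7 is known as a main factor of the shade response of seedlings, in which auxin synthesis genes and homeodomain-leucine zipper genes are induced and the hypocotyl elongates.

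The series holds 109 samples of light-grown seedlings on Linsmaier and Skoog medium, of which 29 are RNA-seq libraries and 80 are ChIP samples. The tagged line has the genotype pif457, a mutant of PIF4, PIF5 and PIF7, and carries PIF7:PIF7:4xMYC, a MYC-tagged PIF7 as its label writes it. All 3 event lists come from this line and from an antibody to MYC. The 30 min list sets low R:FR for 30 min against the same line in white light, with 2 samples each. The second set of samples was taken at ZT4 (zeitgeber time, hours after lights on). Its first list sets low R:FR against wild-type IgG, and a second ZT4 list, with 3 samples a side, is described as low R:FR against white light, but the sample numbers given for each side carry the other light in their titles, so which light its strengths stand for is not settled here. The ZT4 lists share libraries, so they are not independent of each other. Each list was called once on pooled replicates, so no event value has a replicate error.

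Transcripts were measured in 3 RNA-seq tables. In table I, Col-0 wild type was kept in white light, shaded for 2 h, or shaded for 2 h and then returned to white light for 2 h (recovery). In table II, the PIF7-4xMYC line was in white light or had 5, 10 or 30 min of shade. In table III, Col-0 and pif457, the latter with no transgene, were in white light or had 30 min of shade. Shade here is low R:FR light, each group of table III has 2 libraries and each other group 3, and no age or hour of harvest is given for the seedlings. The tables were normalized separately, so tests were made within a table. Transcripts of RBCS1A, a leaf gene for the small Rubisco subunit, reached at least 16936 TPM (transcripts scaled to a common sum) in every library. PIF7 stood at 70.0 to 137 TPM in the libraries of the tagged line, at 21.6 to 28.0 TPM in wild type of table III and at 0.35 to 1.47 TPM in pif457 of table III. Whether replicates were grown as separate cultures is not stated, so each p-value speaks only for the scatter among the libraries at hand. In whole seedlings, fewer cells of a type and less RNA per cell cannot be told apart.

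The k-mers below go with the 10 strongest events of the 30 min list, all of which were members. The longer k-mers come from the partner events in the second ZT4 list, at the position given, since the other lists give only 6 letters. The offset of the partner from the 30 min event was 39 bases at PHYB, -18 at AT4G17440, 15 at AT4G28240 and 8 at CKX5. At these 4 genes the letters need not be those around the 30 min position, and the other partners lay closer. Capitals mark CACGTG, and n stands for a base that the caller did not fix. The letters are the caller's k-mer as deposited and were not read from a genome.
AT5G57670 (chromosome 5, position 23359553): atgCACGTGgtt
PHYB (chromosome 2, position 8139647): gatCACGTGggcta
near ATHB2 (chromosome 4, position 9444228): catgCACGTG
AT4G17440 (chromosome 4, position 9731652): ccaCACGTGcnt
AUX1 (chromosome 2, position 15977428): gacgCACGTGgata
near ATHB2, another event (chromosome 4, position 9443424): cttCACGTGgatc
AT2G39855 (chromosome 2, position 16640280): agCACGTGcga
AT4G28240 (chromosome 4, position 13998864): cttCACGTGanat
AT2G28060 (chromosome 2, position 11947518): tggtCACGTGgcaag
CKX5 (chromosome 1, position 28319031): attCACGTGggaga

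A second set lies at or near shade and hormone genes whose transcripts are described further on.
ATHB4 (chromosome 2, position 18521583): gttCACGTGggaagt
near HFR1, nearest to AT1G02350 (chromosome 1, position 469296): catCACGTGa
YUC8 (chromosome 4): tctcCACGTGgctt
YUC9 (chromosome 1): cCACGTGgaga
YUC5 (chromosome 5): atcCACGTGgttg
HAT1 (chromosome 4): tgtCACGTGacaa
BIM1 (chromosome 5): tggnCACGTGntgg
DWF4 (chromosome 3): ccCACGTGgtgt
RGA (chromosome 2): taaCACGTGgatc

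A last set shows partner events of members whose k-mer in the second ZT4 list was not a G-box, with CACATG, known as the PBE-box, in capitals where it was there.
AT5G66080 (chromosome 5, position 26425496): ccCACATGggag
GAI (chromosome 1, position 5148010): aatCACATGgga
AT2G30760 (chromosome 2, position 13106965): caacgtggcac

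The G-box call was almost always repeated by the other lists. The nearest ZT4 event had a G-box k-mer for 518 of the 523 members, and the nearest event of the second ZT4 list for 513. Of the 10 exceptions in the second list, 8 had another k-mer, 5 of them with CACATG, and 2 had none. The base that follows the hexamer, read outward on both strands, could be read in 911 places of the members' partners in the second ZT4 list, and it was G in 39.6%, A in 25.8%, C in 20.6% and T in 13.9%. Among the other G-box events of that list, the same base was G in 41.9%, A in 23.3%, C in 16.5% and T in 18.2% of 532 places. Of partner events with a readable flank, 59.6% of 483 had CACGTGG on at least one side, against 61.4% of 280 for the other G-box events. Events in and out of the shared set had similar flanks by these shares, and the difference was not tested. With members in 3 equal groups by strength in the 30 min list, CACGTGG was present in 65.6% of the weakest group, 51.8% of the middle group and 62.7% of the strongest group, with no steady order.

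Shared events were the stronger events of the 30 min list. Their strength, the number of reads the caller gave to an event, ran from 61.3 to 793 with a median of 160.1. The G-box events that were not shared had a median of 94.0 and a highest value of 268, and the events without a G-box had a median of 99.8 and a highest value of 403. The caller's control reads at the same positions had medians of 28.4 for members, 27.4 for the other G-box events and 28.4 for events without a G-box, so the classes differed in strength and much less in control reads. Fold over white light, as deposited, had a median of 5.9 among members, with a range of 2.0 to 23.5, and a median of 3.6 among other G-box events. When the 984 G-box events were put in 4 equal groups by strength, 14.6% of the weakest group, 41.5% and 65.0% of the middle groups and 91.5% of the strongest group were members. Of the 50 strongest events of the list 46 were members, and of the 100 strongest 88 were. An event that is strong in one list is easier to call in another, and these shares say nothing on whether weaker events were unoccupied at ZT4.

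Fewer events without a G-box were shared. Of the 424 such events, 24.8% had an event within 100 bases in both other lists, against 53.2% of the 984 G-box events. The gap was wider towards the second ZT4 list, with 30.0% against 66.9%, than towards the ZT4 list with IgG control, with 50.5% against 59.2%. These shares are descriptions of single pooled lists and carry no test. Among G-box events sharing rose with strength, as given above, and the classes were not matched for strength. The gap can thus not be assigned to the G-box alone.

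Members kept much of their order of strength between lists. Over the 523 members, Spearman's rho was 0.688 between the 30 min list and the ZT4 list and 0.698 between the 30 min list and the second ZT4 list. Between the ZT4 lists, which share libraries, it was 0.865. The strongest event of all lay on chromosome 5 at position 23359549, with 793 reads at 30 min, 1735 in the ZT4 list and 3264 in the second ZT4 list. The event at PHYB, with 683 reads at 30 min, had 1124 and 2496 reads in the other lists, and that at CKX5, with 481.7 reads at 30 min, had 1220 and 2468. Strengths are not scaled to depth as far as stated, so the order within a list can be read and the height between lists cannot.

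**Figure D1:**
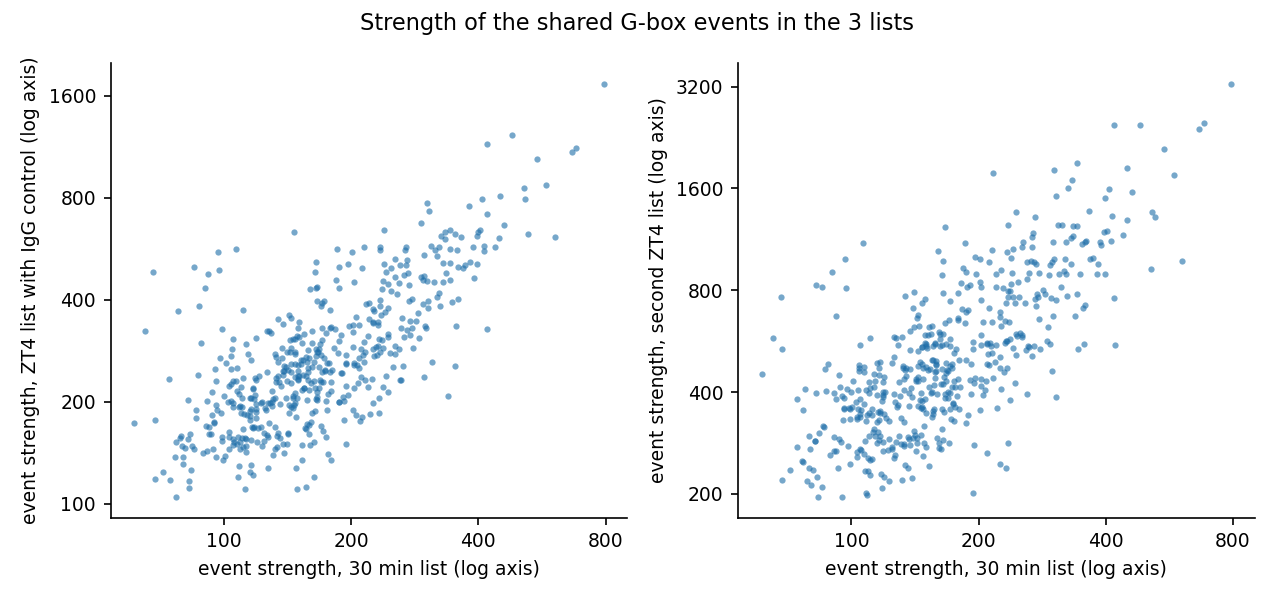
Strength of each of the 523 shared G-box events in the 30 min list (horizontal, log axis) against its partner in the ZT4 list with IgG control (left) and in the second ZT4 list (right, both log axes). Points are events, and the strong events of one list were mostly strong in the others, with Spearman's rho of 0.688 and 0.698.

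The positions were tight. The nearest ZT4 event lay 3 or 4 bases from the 30 min position for 88.9% of members, and the nearest event of the second ZT4 list for 83.9%. No member had a partner at less than 3 bases in either list, whereas 279 of the 506 ZT4 partners had an event of the second ZT4 list at the very same base. The origin of the 3 to 4 base offset of the 30 min list was not tested. At the edge of the rule, the last members inside were an event at chromosome 1, position 26164590, with a strength of 95.8 and a partner 99 bases away, and an event near BZIP61 at chromosome 3, position 21523550, with a strength of 99.1 and a partner 100 bases away. The first outside were an event near BTI3 at chromosome 5, position 16635512, with a strength of 153.9 and partners at 102 bases, and an event near BUB3.1 at chromosome 3, position 6805258, with a strength of 84.4 and a partner at 103 bases. Some members share a partner, 34 of them in the ZT4 list and 26 in the second ZT4 list.

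Members occurred on all chromosomes, with 129 on chromosome 1, 72 on 2, 116 on 3, 88 on 4 and 118 on 5. When members up to 1000 bases apart were chained, 387 stood alone, 62 groups held 2 events and 4 groups held 3. By the RefSeq gene table, 116 members lay inside the span of a protein-coding gene, which is 22.2%, against 29.6% of the other 885 events of the 30 min list. A further 251 lay outside a gene but within 1 kb of one, 131 lay between 1 and 3 kb away, and 25 had no coding gene within 3 kb. The table gives no strand, so upstream and downstream were not told apart. The nearest coding gene within 3 kb gave 430 genes, of which 367 were nearest to 1 member, 56 to 2, 6 to 3 and 1 to 4. These genes are called member genes below. The gene with 4 is SHOT1, whose neighbour HAT3, of the same protein class as ATHB4, has 4 members within 6 kb. Nearest genes are a reading by distance only, and no event is shown to act on a gene.

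The tagged line at 30 min asked whether transcripts near these events had moved by the time of the ChIP samples. Of the 430 member genes, 401 had a TPM above 0 in at least 1 library of table II and were tested. Of these, 150 were raised and 1 was lowered at 30 min against white light (limma on log2 of TPM + 1, adjusted p under 0.05), which is 37.4% raised. Over all 24589 genes tested, 3.80% were raised and 1.03% lowered. The median log2 change was 0.31 over member genes and 0.05 over all genes. Genes nearest to the G-box events that were not shared gave 63 raised and 7 lowered of 391, or 16.1% raised. Genes nearest to events without a G-box gave 71 raised and 4 lowered of 287, or 24.7% raised. These classes also differ in event strength, as given above, and the differences between them were not tested. With median centring, fitted only on genes with a mean of at least 1 TPM, 126 of 359 member genes were raised and 8 lowered. The same floor without centring gave 158 raised. No share over all genes is given for these settings, so these counts say nothing particular to member genes. The centred median log2 change was 0.24 over member genes and -0.02 over all genes of at least 1 TPM.

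**Figure D2:**
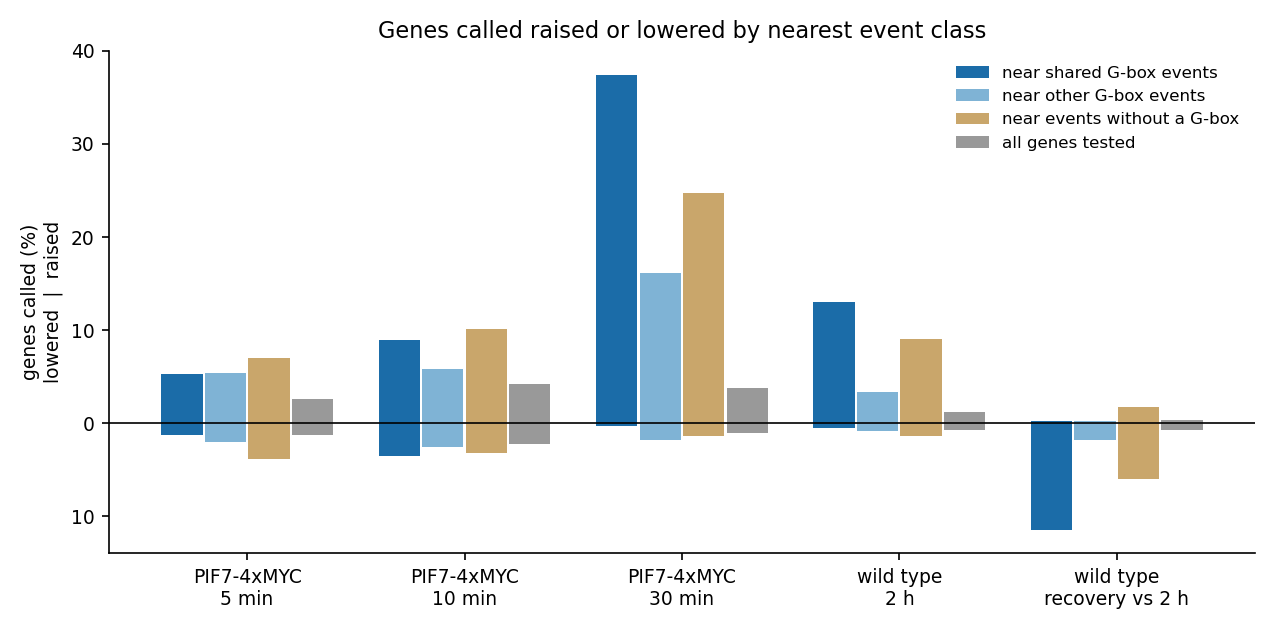
Percent of tested genes called raised (upward bars) or lowered (downward bars) in 5 comparisons, for genes nearest to shared G-box events, other G-box events and events without a G-box, and for all genes tested. The share raised near shared G-box events was 37.4% at 30 min in the PIF7-4xMYC line and 13.0% at 2 h in wild type, against 3.80% and 1.24% of all genes.

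The list of shade transcription regulators had 6 member genes, of which BBX28 did not pass and the other five were raised. ATHB4, a class II homeodomain-leucine zipper factor of the shade response, stood at 3.49, 3.06 and 2.28 TPM under white light and then at 89.8, 95.9 and 92.7 TPM at 30 min, a log2 change of 4.58 ± 0.15 (SE, adjusted p = 7.5e-08, limma). All 3 libraries at 30 min were far above every other library of the table. HAT1, of the same class, had 28.8, 28.0 and 24.3 TPM in white light. At 30 min it had 223, 214 and 242 TPM, a log2 change of 3.02 ± 0.09. HAT2 stood at 21.8, 19.4 and 20.3 TPM and then at 68.2, 65.0 and 68.4 TPM, a log2 change of 1.67 ± 0.09. PAR1, a helix-loop-helix protein without a DNA-binding basic region that restrains the shade response, stood at 3.65, 4.07 and 3.45 TPM and then at 28.1, 32.2 and 25.9 TPM, a log2 change of 2.65 ± 0.14. For HAT1, HAT2 and PAR1 the groups did not overlap. ATHB4, HAT1 and PAR1 are also among the 12 largest rises chosen without overlap, so for them the gap from white light follows from that choice. PAR2, a homologue of PAR1, rose less, by 0.99 ± 0.18 on the log2 scale (adjusted p = 0.012, limma). That call was lost when 30 min replicate 1 was left out (adjusted p = 0.053). BBX28, a B-box protein, stood at 25.4 to 26.4 TPM under white light and then at 24.7 to 28.2 TPM at 30 min, and these ranges overlap.

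PHYB, the main phytochrome that senses R:FR, had the second strongest event of the list. It stood at 30.4, 27.2 and 29.3 TPM under white light and then at 48.1, 50.0 and 53.2 TPM at 30 min, a log2 change of 0.78 ± 0.06 (adjusted p = 7.1e-05, limma). FHL, which brings phytochrome A into the nucleus, stood at 0.17, 1.43 and 0.24 TPM and then at 2.29, 2.04 and 2.42 TPM, a log2 change of 1.09 ± 0.24 (adjusted p = 0.031). Its groups did not overlap, but 1 white-light library was high, and the call was lost under 6 alternatives, with an adjusted p of up to 0.136. PIF6, a relative of PIF7 with 2 members nearby, stood at 1.23 to 1.42 TPM and then at 1.53 to 3.15 TPM, which did not pass (adjusted p = 0.18).

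Auxin genes formed a second group. YUC5, YUC8 and YUC9 encode flavin monooxygenases of the last step of auxin synthesis, and all were near 0 in white light. YUC8 stood at 0.69, 0.92 and 0.87 TPM under white light and then at 10.1, 8.99 and 9.08 TPM at 30 min, a log2 change of 2.51 ± 0.13 (adjusted p = 2.5e-06, limma). YUC9 stood at 0.19, 0.36 and 0.12 TPM and then at 4.63, 5.29 and 5.06 TPM, a log2 change of 2.30 ± 0.10. YUC5 stood at 0.65, 0.57 and 0.35 TPM and then at 4.48, 4.27 and 4.85 TPM, a log2 change of 1.86 ± 0.16. On this scale, with 1 TPM added, the fold of such low genes is understated. In all 3 genes every library at 30 min lay above every white-light library. IAA2, an Aux/IAA repressor induced by auxin, rose by 1.06 ± 0.10 on the log2 scale. GH3.6, which joins auxin to amino acids, rose by 0.57 ± 0.08. AUX1, the auxin influx carrier, which has the fifth strongest event of the list, stood at 43.0, 49.6 and 44.1 TPM and then at 104, 98.3 and 103 TPM, a log2 change of 1.14 ± 0.06 (adjusted p = 1.9e-06).

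Brassinosteroid and gibberellin genes made up the third group. BIM1, a helix-loop-helix partner of the brassinosteroid factor BES1, stood at 36.6, 31.6 and 33.9 TPM under white light and then at 212, 197 and 236 TPM at 30 min, a log2 change of 2.62 ± 0.08 (adjusted p = 6.3e-08, limma). DWF4, a rate-limiting enzyme of brassinosteroid synthesis, stood at 11.5, 10.6 and 9.79 TPM and then at 38.1, 43.2 and 41.9 TPM, a log2 change of 1.86 ± 0.14. BEH4, a homologue of BES1 and BZR1, stood at 17.2, 14.8 and 16.0 TPM and then at 58.4, 56.8 and 59.3 TPM, a log2 change of 1.80 ± 0.08. These 3 genes and BRH1 are among the 12 largest rises chosen without overlap between groups, so their rise and gap follow from that choice. BRH1, named as a brassinosteroid-responsive RING-H2 protein, stood at 55.4, 49.4 and 42.9 TPM and then at 202, 210.1 and 201 TPM, a log2 change of 2.04 ± 0.09. BEE1 rose by 0.67 ± 0.13 (adjusted p = 0.016), a call lost without 30 min replicate 1 or 3 or with the compared groups alone (adjusted p from 0.065 to 0.067). CYP734A1, which inactivates brassinosteroids, stood at 7.54 to 8.73 TPM and then at 8.69 to 12.4 TPM and did not pass (adjusted p = 0.14). The DELLA repressors of gibberellin signalling GAI and RGA were also raised, by 1.01 ± 0.11 and 0.47 ± 0.06. RGA is a highly expressed gene, at 71.0, 60.9 and 67.8 TPM in white light and 86.8, 96.6 and 93.4 TPM at 30 min.

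Other members rose as strongly. Of these, JAZ3, BRG3, AT5G66080, AT3G07350 and AT5G44260 were named as part of the 12 largest rises, so their rise follows from that choice. PRE1, a helix-loop-helix protein that promotes growth, rose by 1.63 ± 0.20, from 4.14, 2.88 and 5.93 TPM to 15.5, 14.4 and 15.1 TPM. JAZ3, a repressor of jasmonate signalling, stood at 9.13, 11.0 and 10.7 TPM and then at 55.0, 44.1 and 56.5 TPM, a log2 change of 2.22 ± 0.11 (adjusted p = 2.5e-06, limma). BRG3, a RING protein related to BOI, rose by 1.80 ± 0.10, from 20.9, 17.6 and 17.3 TPM to 60.0, 68.4 and 73.5 TPM. AT5G66080, named APD9 and a clade D protein phosphatase 2C by its synonym, rose by 2.43 ± 0.21. AT3G07350, which has no other name in the table, rose by 2.42 ± 0.21, and its 30 min libraries, at 58.1, 32.0 and 56.1 TPM, were uneven. AT5G44260, a tandem CCCH zinc finger protein by its synonym TZF5, rose by 1.92 ± 0.28. The only fall was AT1G20823, which stood at 12.6, 12.7 and 12.4 TPM and then at 8.89, 6.39 and 9.03 TPM, a log2 change of -0.59 ± 0.12 (adjusted p = 0.023). That call was lost under 4 alternatives, with an adjusted p of up to 0.115.

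**Figure D3:**
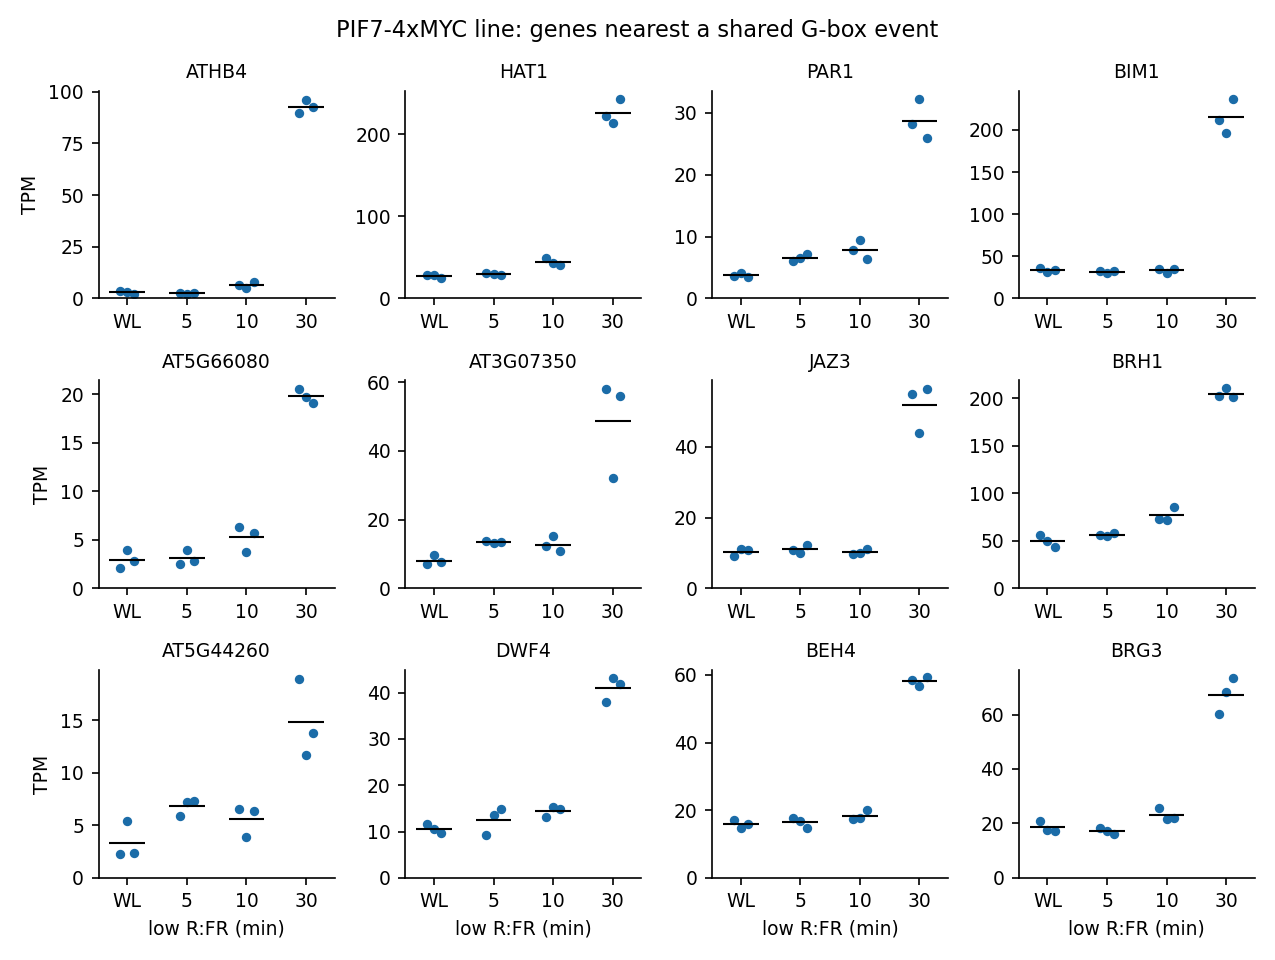
TPM of 12 genes nearest to a shared G-box event in each library of the PIF7-4xMYC line, in white light (WL) and at 5, 10 and 30 min of shade. Points are libraries and bars are means of 3. The genes were chosen as the 12 largest rises at 30 min among those of at least 5 TPM whose groups did not overlap, so their rise and the gap between white light and 30 min follow from the choice. What the choice did not use is the level at 5 and 10 min.

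A strong event did not always come with a raised neighbour. The gene nearest to the strongest event, AT5G57670, stood at 0.30 to 0.56 TPM under white light and then at 0.42 to 0.87 TPM at 30 min, and it did not pass (adjusted p = 0.45, limma). AT2G39855 stood at or below 0.57 TPM in all libraries of table II. AT2G28060, a subunit of the SnRK1 complex by its synonym KINbeta3, stood at 15.7 to 18.9 TPM and then at 16.1 to 19.9 TPM, with overlapping groups. AT4G17440 stood at 3.42 to 3.54 TPM and then at 4.49 to 6.06 TPM, with no overlap, but did not pass (adjusted p = 0.11). AT4G28240 rose by 1.76 ± 0.12. CKX5, a cytokinin oxidase, rose by 0.71 ± 0.07 at a low level, from 0.22 to 0.28 TPM to 0.93 to 1.22 TPM.

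The nearest gene missed several classic shade genes that had members close by. ATHB2, a class II homeodomain-leucine zipper factor and a standard marker of low R:FR, had 4 members within 6 kb, 2 of them among the 10 strongest events. It stood at 5.42, 4.41 and 5.29 TPM under white light and then at 288, 288 and 303 TPM at 30 min, a log2 change of 5.61 ± 0.11 (adjusted p = 3.0e-09, limma). HFR1, an atypical helix-loop-helix protein that limits the response, had 2 members within 3 kb and rose by 2.32 ± 0.17, from 3.03, 4.05 and 4.18 TPM to 23.9, 20.1 and 23.9 TPM. PIL1, a PIF-related protein, had 2 members within 3 kb and rose by 1.74 ± 0.10, from 0.30, 0.15 and 0 TPM to 2.84, 2.43 and 3.20 TPM. HAT3 rose by 1.97 ± 0.08. IAA29, an Aux/IAA gene, rose by 1.99 ± 0.16, and GA3OX1, of gibberellin synthesis and within 6 kb of a member, by 1.18 ± 0.18. The call of GA3OX1 was lost with the compared groups alone (adjusted p = 0.058). ARF18, an auxin signalling gene within 3 kb of a member, rose by 0.55 ± 0.11, a call lost in 3 settings (adjusted p up to 0.088, limma). Not all such genes rose. GH3.5, within 3 kb, changed by 0.38 ± 0.10 and did not pass (adjusted p = 0.060, limma). XTH33, within 6 kb, changed by -0.01 ± 0.15 and did not pass either (adjusted p = 0.995). With every coding gene within 3 kb counted in place of the nearest one, 226 of 841 genes were raised and 1 lowered at 30 min, which is 26.9%.

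Over 9 lists of shade, light and hormone genes, 100 genes in all, 22 were member genes and 27 lay within 3 kb of a member. Of those 27, 23 were raised at 30 min, and of the 73 others 11 were raised and 3 lowered. The lists were drawn up with results of these data known, so these counts describe them and support nothing. No gene of the 14 clock genes and none of the 9 cell wall genes lay within 3 kb of a member. The shade transcription regulators had 8 of 13 genes within 3 kb, auxin synthesis and inactivation 5 of 14, gibberellin and brassinosteroid 6 of 12, and phytochromes and PIFs 3 of 15.

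Fewer member genes were raised at earlier times in the tagged line, and more were lowered. Over all genes, 1030 were raised and 552 lowered at 10 min, against 934 and 254 at 30 min. At 5 min, 21 member genes were raised and 5 lowered of 401, against 2.58% and 1.31% of all genes. At 10 min, 36 were raised and 14 lowered, against 4.19% and 2.24%. The raised share of member genes was 5.24% at 5 min and 8.98% at 10 min. Genes nearest to the other G-box events had 5.37% and 5.88% raised, and those nearest to events without a G-box 6.97% and 10.1%. These early shares were therefore not particular to member genes. The 3 comparisons share the white-light libraries. Median centring, fitted only on genes with a mean of at least 1 TPM, covered 359 member genes. It gave 25 raised and 17 lowered at 5 min and 27 raised and 26 lowered at 10 min. The same floor without centring gave 34 raised at 5 min and 45 at 10 min, so the counts moved with both the floor and the scaling. Shares over all genes are not given for these settings either, so these counts say nothing particular to member genes. The 5 min count was 5 without 5 min replicate 3. The 10 min count was 5 when the compared groups were fitted alone, and it ran from 6 without white-light replicate 3 to 67 without white-light replicate 2. Among the genes named above, PAR1 passed at 5 min, with 5.99, 6.47 and 7.22 TPM and a log2 change of 0.68 ± 0.14 (adjusted p = 0.025, limma). That call was lost without any 1 of the 5 min libraries or without white-light replicate 1 or 3, with adjusted p from 0.053 to 0.107. At 10 min YUC8 stood at 3.35, 2.41 and 2.35 TPM, a log2 change of 1.01 ± 0.13, and HAT1 at 49.4, 42.6 and 40.5 TPM, a log2 change of 0.69 ± 0.09, each above all white-light libraries. ATHB2 stood at 21.0, 16.6 and 14.8 TPM at 10 min, a log2 change of 1.60 ± 0.11. BIM1, BEH4 and JAZ3 did not pass at 10 min, with log2 changes of -0.02 ± 0.08, 0.19 ± 0.08 and -0.01 ± 0.11.

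Wild type and pif457 at 30 min, in table III with 2 libraries a group, asked whether the response needs the PIF genes. Of 403 member genes tested, 6 were raised and 0 lowered in wild type, against 0.119% raised and 0% lowered of all 24384 genes. At an unadjusted p under 0.05 they were 64 raised and 9 lowered, which are 15.9% and 2.23%, against 7.05% and 1.68% of all genes. In pif457, limma called 0 raised and 0 lowered, against 0.00820% and 0.00410% of all genes. At an unadjusted p under 0.05 they were 12 and 43, or 2.98% and 10.7%, against 1.02% and 8.39% of all genes. For a lower response in pif457 than in wild type 3 members passed and for a higher one 0, against 0.0328% and 0.00820% of all genes. At an unadjusted p under 0.05 (limma), 66 and 4 did, or 16.4% and 0.993%, against 10.8% and 0.796% of all genes. Genes nearest to the other G-box events gave 15.2% and 0.775%, and those nearest to events without a G-box 13.7% and 0.341%. The share with a lower response was thus close to that of members in both classes, and the differences were not tested. The count of 3 moved when single libraries were left out, which leaves 1 library in a group. Without pif457 30 min replicate 2, the pif457 response minus the wild-type response had a median of -0.47 over 18770 genes of at least 1 TPM. Only 7.8% of those genes were higher, so the whole table had shifted. In white light 0 member genes were lower and 0 higher in pif457, against 0.0164% and 0.0123%. At an unadjusted p under 0.05 they were 20 and 10, or 4.96% and 2.48%, against 1.73% and 2.51% of all genes. With a floor of 1 TPM on the mean, 31 member genes were raised in wild type and 29 had a lower response in pif457. No share over all genes is given for this floor, so these 2 counts say nothing particular to member genes.

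The 3 genes were ATHB4, YUC9 and YUC5. In wild type, ATHB4 stood at 3.48 and 3.63 TPM under white light and then at 87.1 and 77.2 TPM at 30 min, and in pif457 at 5.02 and 5.72 TPM and then at 3.89 and 6.22 TPM. YUC9 stood at 0.50 and 0.22 TPM and then at 17.8 and 15.9 TPM in wild type, and at 0.41 and 0.19 TPM and then at 0.24 and 0 TPM in pif457. YUC5 stood at 0.50 and 0.49 TPM and then at 7.73 and 9.02 TPM in wild type, and at 0.46 and 0.88 TPM and then at 0.14 and 0.20 TPM in pif457. In each gene both wild-type libraries at 30 min lay above all the others. The pif457 response was lower by -4.29 ± 0.33, -3.93 ± 0.26 and -3.15 ± 0.23 on the log2 scale (adjusted p = 0.0088 for each, limma). Leaving out 1 library ended the call of ATHB4 in 5 cases and of YUC5 in 3, and a pseudocount of 0.1 that of YUC9, with adjusted p from 0.051 to 0.101. HAT1 rose from 22.0 and 26.4 TPM to 88.0 and 85.9 TPM in wild type (adjusted p = 0.011), and stood at 20.9 and 22.9 TPM and then at 31.2 and 39.3 TPM in pif457. Leaving out any 1 of 8 libraries ended that call in wild type, with adjusted p from 0.051 to 0.142.

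The 150 member genes raised in table II could be followed in table III, whose libraries played no part in choosing them. In wild type 118 of the 150 were higher at 30 min, which is 78.7%, with a median log2 change of 0.24, against 63.9% higher and a median of 0.06 over 18772 genes of at least 1 TPM. In pif457, 59 were higher, which is 39.3%, with a median of -0.07, against 19.7% and -0.18 over the same genes. These values moved with the scaling. With rRNA and organellar genes removed, 101 of the 150 were higher in pif457, which is 67.3%, with a median of 0.09, against 42.8% and -0.04 over all genes of at least 1 TPM. With median centring 104 of 148 were higher, which is 70.3%, with a median of 0.13, against 53.2% and 0.02. In the pif457 30 min group, replicate 1 had 23.1% of TPM in rRNA and organellar transcripts and replicate 2 had 5.78%, against 4.09 to 12.0% in the other libraries. Without replicate 1, 104 of the 150 were higher in pif457, with a median of 0.19 against 0.06 over all these genes, and without replicate 2, 27 were higher, with a median of -0.30 against -0.40. The pif457 response minus the wild-type response had a median of -0.38 over the 150 genes and -0.24 over all genes of at least 1 TPM, and without replicate 1 these were -0.11 and -0.00. With median centring they were -0.12 and 0.02. By this difference the 150 genes lay below the table in each of these settings. In pif457 itself the median of the 150 genes lay above that of the table in every setting given. Whether most of them were higher or lower in pif457 changed both with the scaling and with 1 library.

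**Figure D4:**
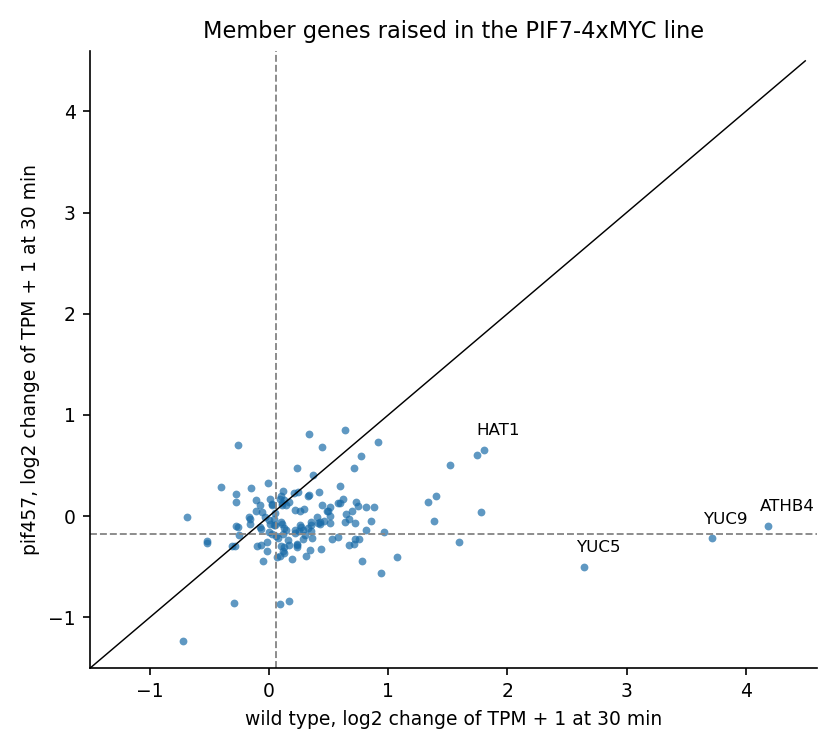
Log2 change of TPM + 1 at 30 min in wild type (horizontal) and in pif457 (vertical) for the 150 genes nearest a shared G-box event that were raised in the PIF7-4xMYC line. Points are genes, dashed lines are the medians over genes of at least 1 TPM (0.06 and -0.18), the solid line marks equal change, and ATHB4, YUC9 and YUC5 lie farthest to the right.

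After 2 h in wild type, most of the member genes that were called were raised, in libraries that share nothing with table II. Of 401 tested, 52 were raised and 2 lowered, against 1.24% and 0.734% of all 25331 genes, and the median log2 change was 0.19 against -0.01. In recovery against 2 h, 46 were lowered and 1 was raised, against 0.746% and 0.359%, with a median of -0.15 against 0. These comparisons share the 2 h libraries, so a high value there gives both a rise and a fall. Leaving out 2 h replicate 2 gave 34 raised and 30 lowered, leaving out 2 h replicate 3 gave 29 lowered, and leaving out recovery replicate 2 gave 28 lowered. Of the 150 genes raised at 30 min in the tagged line, 38 were raised at 2 h, which is 25.3% of the 150 and 73.1% of the 52. The same overlap was not counted over all genes, so it says nothing particular to member genes. Light and hour of harvest cannot be told apart if the groups differ in hour.

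HAT2 stood at 19.8, 23.2 and 23.1 TPM in white light, at 148, 159 and 171 TPM at 2 h and at 16.7, 22.0 and 18.6 TPM in recovery. Its log2 changes were 2.80 ± 0.13 and -3.00 ± 0.13 (adjusted p = 9.0e-06 and 3.4e-06, limma). IAA2 stood at 44.1, 46.4 and 39.2 TPM, at 218, 265 and 247 TPM and at 40.7, 23.9 and 25.9 TPM, with log2 changes of 2.46 ± 0.18 and -3.00 ± 0.18. BEE1, which had moved little at 30 min, stood at 6.09, 3.80 and 7.97 TPM, at 49.3, 41.2 and 50.4 TPM and at 4.13, 1.72 and 0.64 TPM. In these 3 genes all 2 h libraries lay above all others. YUC8 stood at 1.3, 1.44 and 0 TPM, at 19.1, 31.2 and 21.8 TPM and at 3.70, 1.96 and 2.92 TPM, with log2 changes of 3.79 ± 0.40 and -2.69 ± 0.40. YUC9 moved in the same way, with log2 changes of 3.28 ± 0.40 and -3.08 ± 0.40. With a pseudocount of 0.1 the falls of YUC8 and YUC9 in recovery did not pass (adjusted p = 0.214 and 0.073), and that of YUC8 did not pass without recovery replicate 2 (adjusted p = 0.051). PHYB stood at 19.8, 17.4 and 24.3 TPM, at 42.5, 47.3 and 50.7 TPM and at 21.2, 19.8 and 20.4 TPM, with changes of 1.16 ± 0.15 and -1.15 ± 0.15. GAI, GH3.6, AUX1, BRH1, BRG3 and BIM1 also passed in both directions. The fall of GAI in recovery was lost without 2 h replicate 2 or 3 or recovery replicate 1 or 2 (adjusted p up to 0.063). The 2 h rise of BRG3 was lost under 4 alternatives, among them the replicate block and leaving out 2 h replicate 1 or 2 (adjusted p up to 0.076). That of BIM1 was lost under 5, among them the replicate block and leaving out 2 h or white-light replicate 2 or 3 (adjusted p up to 0.092).

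Not every gene that was high at 30 min was high at 2 h. ATHB4 stood at 6.53, 2.72 and 2.56 TPM under white light and then at 5.64, 6.87 and 8.37 TPM at 2 h of table I, with overlapping groups (adjusted p = 0.38, limma), although it had reached 77.2 TPM or more at 30 min in wild type of table III. DWF4 stood at 8.31, 8.31 and 10.9 TPM and then at 8.26, 10.1 and 10.2 TPM, and JAZ3 at 13.7, 10.0 and 8.66 TPM and then at 11.7, 9.87 and 11.8 TPM, both with overlap. YUC5 stood at 0, 0.98 and 0.61 TPM and then at 3.04, 1.64 and 1.80 TPM. Its groups did not overlap, but the rise did not pass (adjusted p = 0.16, limma). At so low a level the added 1 TPM understates the fold. ATHB2, by contrast, stood at 132, 149 and 140.3 TPM at 2 h and at 7.01, 6.83 and 4.89 TPM in recovery. The tables come from different experiments, and the difference between 30 min and 2 h was not tested.

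Event strength and number went with the share of raised genes. Ranked by their strongest member, 42 of 134 genes of the weakest of 3 groups were raised at 30 min in the tagged line, 42 of 133 of the middle group and 66 of 134 of the strongest group, which are 31.3%, 31.6% and 49.3%. The median log2 changes were 0.26, 0.29 and 0.43. With 1 member nearby 118 of 343 genes were raised, or 34.4%, with 2 members 28 of 51, or 54.9%, and with 3 or more 4 of 7, or 57.1%. A gene with more members has more chances of a strong one, so these splits overlap. At 2 h in wild type the strongest group had 21.6% raised, against 9.70% and 7.52% in the others. Gene by gene the relation was weak, with a Spearman's rho of 0.166 between strongest member and log2 change over 401 genes, which share the 6 libraries of the contrast. Genes that held their member inside the span were raised in 35 of 100 cases and those with it outside in 115 of 301, or 35.0% and 38.2%. No test was made of these differences.

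**Figure D5:**
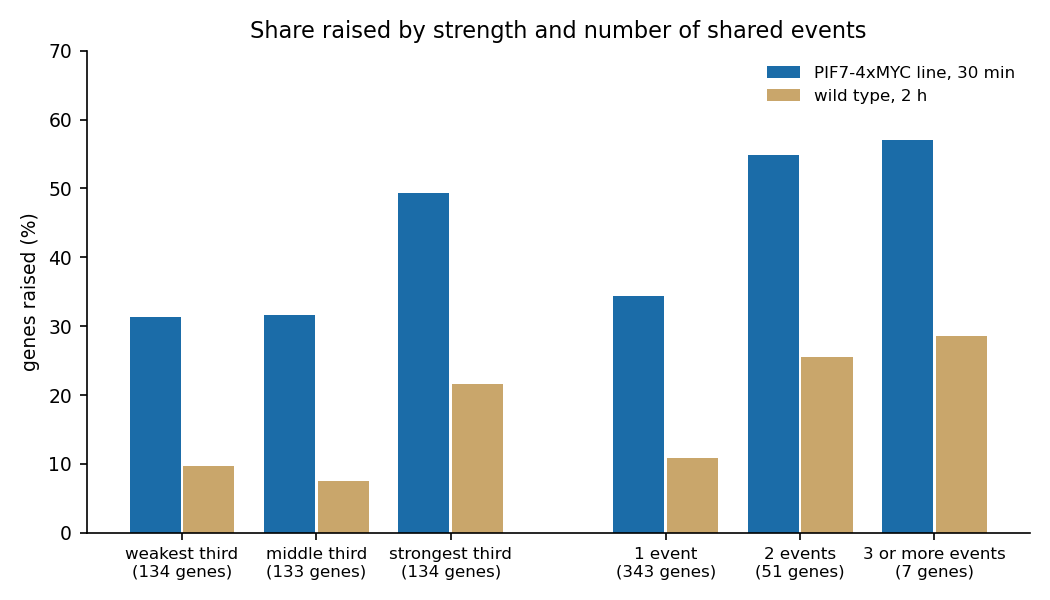
Percent of tested member genes raised at 30 min in the PIF7-4xMYC line and at 2 h in wild type, in 3 groups by their strongest shared event (left) and by number of shared events (right). Gene numbers stand under the bars, and the strongest group reached 49.3% and 21.6%, against 31.3% and 9.70% in the weakest.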

How the data were processed

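Per the labels' file descriptions, binding events were called with GEM on pooled samples, and the submitters' processing notes name Bowtie2 2.1.0, STAR 2.6.0c, RSEM 1.3.0 and the build TAIR10. The deposited lists give, per event, a signal (reads at the event and in the control), a fold ratio, a -log10 q capped at 999, and a noise fraction, all the authors' values. RNA values are the authors' deposited TPM, 33602 gene models in each table, with rRNA and organellar genes among them. TPM keeps no depth, so depth and counting intervals are unknown.

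Members are events of the 30 min list with CACGTG in the k-mer and an event within 100 bases in both other lists. Genes (27444 coding) come from a RefSeq table of TAIR10.1, used for names and distances. Members, gene lists and tests were chosen with earlier results of these data known. No count model was used, since no counts were given. limma 3.58.1 (R 4.3.3) with a trend was fitted to log2(TPM + 1), all groups of a table together, on genes above 0 in any library, and p-values were adjusted over all genes of each of 9 comparisons (Benjamini-Hochberg). Tested on simulated data, the share of 2-fold changes found was 54% for 2 h (table I), 91% for 30 min (table II) and 29% for wild type (table III). The changed genes were drawn from those above about 5 TPM, with independent scatter between libraries, so these shares do not hold for lower genes. The genes named are list genes nearest to a member, the 12 largest rises and up to 6 falls at 30 min above 5 TPM without overlap, genes past the interaction threshold, and the neighbours of the 10 strongest events. Others, such as SHOT1 and HAT3, were chosen after their values were seen. Histone samples and 2 samples with conflicting labels were not analysed here. Events were matched in Python 3.11.15 with pandas 2.3.3 and numpy 2.4.6, correlations came from scipy 1.17.1, and figures from matplotlib 3.10.9.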

Additional observations from a re-analysis of the deposited data

Results flagged for a closer look

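For 3 member genes the 30 min response differed between pif457 and wild type by the interaction test of table III, with 2 libraries a group. The log2 response in pif457 minus that in wild type was -4.29 for ATHB4, -3.93 for YUC9 and -3.15 for YUC5 (adjusted p = 0.0088 for each, limma over all genes). In each gene both wild-type libraries at 30 min lay above both in white light, and in pif457 the groups overlapped or were lower at 30 min.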

How the results depend on the processing

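The counts here are of member genes alone, with no share over all genes beside them. Median centring was fitted only on genes with a mean of at least 1 TPM, so it changed the genes tested as well as the scaling. At 30 min in the PIF7-4xMYC line, 150 member genes were raised, and the count was 96 with the compared groups alone, 226 with every gene within 3 kb and 91 for members above median strength. Single libraries left out gave 103 to 148. At 5 min, 21 became 34 with a mean of at least 1 TPM, 12 with a replicate block, 42 with every gene within 3 kb and 6 for members above median strength, and 5 to 31 without single libraries. The lowest counts at 5 min came without 5 min replicate 1 (9), 2 (10) or 3 (5), white-light replicate 1 (12) or 3 (10), or 30 min replicate 1 (13). At 10 min, 36 became 20 with a replicate block, 5 with the compared groups alone, 64 with every gene within 3 kb and 20 for members above median strength. Without single libraries it was 6 to 67, with 15, 21 and 10 without 10 min replicates 1, 2 and 3, 14, 67 and 6 without white-light replicates 1, 2 and 3, and 23 without 5 min replicate 2. In wild type at 30 min, 6 became 31 with a mean of at least 1 TPM, 2 with the compared groups alone, 23 with median centring and 2 with genes within 1 kb, and 2 to 5 without single libraries. In pif457, 0 became 4 with a mean of at least 1 TPM and 4 with median centring, and 0 to 2 without single libraries. The 3 lower responses in pif457 became 29 with a mean of at least 1 TPM, 7 with median centring and 0 with genes within 1 kb, and 1 to 70 without single libraries, with 70 when pif457 30 min replicate 2 is left out and 1 when either wild-type white-light library is. The 0 genes lower in pif457 in white light became 6 with a mean of at least 1 TPM, and stayed at 0 without single libraries. At 2 h, 52 became 34 to 48, and in recovery 46 became 28 to 47, without single libraries. The number of members was 523, and 315 when only events stronger than their list's median were kept, while 25, 50 and 200 bases gave 460, 488 and 540.

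Libraries with the same replicate number did not all deviate together, and some pairs did (correlations of residuals lay between -0.10 and 0.06 for table I, between -0.29 and 0.33 for table II, and between -0.26 and 0.37 for table III), so the numbers were not taken as pairs. Of 6193 gene results recomputed, 5873 kept their side of the threshold, 194 lost the call, 126 gained it and 0 reversed. The cause of these changes was not tested. A test of G-boxes in promoters was not run, since no promoter sequence was used here. TPM gives no depth. On simulated data, table III found 29% of 2-fold and 90% of 4-fold changes.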
